A study of Mus musculus with 2 samples.

Results

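The 9 genes described here are targets of the transcription factor Nrf2 (gene symbol Nfe2l2) and the chains of the iron store ferritin. They are Hmox1, Nqo1, Gclc, Gclm, Srxn1, Txnrd1, Slc7a11, Fth1 and Ftl1. They were chosen by symbol among the 32285 genes listed for both libraries, and each symbol matched 1 gene. Live mononuclear cells were sorted from the limb muscle of aged C57BL/6 mice and profiled with droplet-based (10x Genomics) single-cell RNA-seq. The mice had received Maraviroc (MVC) or its vehicle DMSO. Red cells were lysed and dead cells were excluded by a viability dye before sorting. There was 1 library for DMSO and 1 for MVC, and how many mice each library pooled is not given in the sources used here, so differences between the treatments and differences between these 2 libraries cannot be told apart.

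After cells with fewer than 500 detected genes or more than 10% mitochondrial UMIs were left out, 5437 DMSO and 5454 MVC cells remained. They held 38748234 and 35518029 UMIs (counted RNA molecules), with a median of 5802 and 5195 per cell, and 8 barcode sequences occurred in both libraries. The cells fell into 27 clusters drawn without the 9 genes and the Nrf2, glutathione and iron lists described below. Marker genes gave 15 named classes, written here as "X-like", and 12 of these had at least 50 cells in each library and were compared. The largest compared classes were 2292 DMSO and 2120 MVC endothelial (EC)-like cells and 1173 and 1423 fibro-adipogenic progenitor (FAP)-like cells. The smallest in all was the lymphatic EC-like class, with 75 and 79 cells. The fewest in a single library were the 61 T/NK-like cells of MVC, against 195 in DMSO.

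Nrf2 is held in the cytoplasm by Keap1 and degraded until oxidants or electrophiles modify Keap1, after which it enters the nucleus and binds antioxidant response elements in its target genes. Bach1 occupies the same elements as a repressor until it binds haem. The targets fall into several arms. Hmox1 (haem oxygenase-1) breaks haem down to biliverdin, carbon monoxide and iron. Slc7a11 (the cystine carrier xCT), Gclc and Gclm (the catalytic and modifier subunits of glutamate-cysteine ligase) feed and perform the limiting step of glutathione synthesis. Srxn1 (sulfiredoxin) and Txnrd1 (cytosolic thioredoxin reductase) repair and reduce oxidised peroxiredoxins and thioredoxin, and Nqo1 reduces quinones. Fth1 and Ftl1 encode the heavy and light chains of the ferritin shell, which oxidises and stores iron, and both are controlled a second time in translation by an iron-responsive element at the 5′ end of the mRNA.

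The sequences behind these controls are shown first because the report groups the genes by them. The iron-responsive element was searched as CAACAGTG, a stretch that takes in most of its apical loop and the bases just before it, in the first 200 bases of annotated transcripts, on the transcript strand only. It was found in 2 of the 9 genes, both ferritins, against 0.717% of the 21901 protein-coding genes of the annotation (GENCODE M21, build GRCm38). In GRCm38, Hmox1 lies at chr8:75093621-75100589, Gclc at chr9:77754535-77794485 and the ferritin genes Fth1 and Ftl1 at chr19:9980598-9985098 and chr7:45457944-45459884. The windows below lie in the first exon of their transcripts, with the searched bases in capitals, Fth1 at chr19:9982730-9982759 on the plus strand and Ftl1 at chr7:45459780-45459809 on the minus strand.
Fth1: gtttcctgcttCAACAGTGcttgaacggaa
Ftl1: gtgtcttgcttCAACAGTGtttgaacggaa
RefSeq promoter windows (GRCm38.p6, 250 bases before to 50 after each start) were matched for 7 genes, all but Hmox1 and Gclc. The core of the antioxidant response element was searched as TGACNNNGC on both strands. It lay in the windows of 3 of these 7 genes, against 14.0% of all 27025 gene symbols with a window (12.4% of all 32851 windows). It started at position -134 from the start of Gclm, at -92 of a start of Txnrd1 and at 29 of Srxn1, within the transcribed part. In each it was on the strand opposite to the gene, so that the capitals show its reverse complement. These stretches are chr3:122245413-122245442, chr10:82859104-82859133 and chr2:152105542-152105571, all on the plus strand.
Gclm: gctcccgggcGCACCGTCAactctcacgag
Txnrd1: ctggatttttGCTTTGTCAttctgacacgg
Srxn1: gcagtgggcaGCTAGGTCAgagtgagacac
The variant TGAGNNNGC was present in the windows of Srxn1 and Slc7a11, against 19.8% of all gene symbols (17.6% of all windows). A match is a stretch of letters, not a measured binding site.

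The 9 genes differed widely in where they were expressed. Levels are UMIs of the gene per 1000000 UMIs of a class in a library (CPM), and intervals around them and around ratios cover counting error only, not differences between mice. They are not scaled by transcript length, so a level is compared between classes and libraries and not between genes. Hmox1 was highest in macrophage-like cells, at 4369 CPM in the DMSO library and 3556 CPM in the MVC library. Lymphatic EC-like cells followed with 2968 and 1909 CPM, below macrophage-like cells in both libraries. The next 5 classes (EC-like, FAP-like, neutrophil-like, muscle stem cell (MuSC)-like and tenocyte-like) lay between 1992 and 2365 CPM in DMSO and between 917 and 1489 CPM in MVC, and their order changed between the libraries. B cell-like and T/NK-like cells were low at 181 and 196 CPM in DMSO.

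Slc7a11 had the steepest profile. Neutrophil-like cells, 65 in DMSO and 34 in MVC, stood at 5517 and 2879 CPM and MuSC-like cells at 1171 and 886 CPM, each above the next class in both libraries. Macrophage-like cells followed at 564 and 731 CPM, whereas pericyte-like cells held 23.9 and 8.36 CPM. Neutrophil-like cells gave 33.9% of all Slc7a11 UMIs in the DMSO library and 9.4% in the MVC library. The other arm of glutathione synthesis was spread differently, since Gclc was highest in the cells with smooth muscle and pericyte markers (SMC/pericyte-like, 838 and 712 CPM) and Gclm in neutrophil-like cells (776 and 456 CPM).

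Srxn1 and Txnrd1 were both highest, by the mean of the libraries, in MuSC-like cells, at 373 and 261 CPM for Srxn1 and 964 and 796 CPM for Txnrd1. For Srxn1 the next class was perineurial-like cells, which lay above MuSC-like cells in DMSO (521 CPM) and below them in MVC (103 CPM). For Txnrd1, macrophage-like cells (896 and 799 CPM) and tenocyte-like cells (924 and 749 CPM) were close behind, and macrophage-like and MuSC-like cells changed places between the libraries. Nqo1 was scarce, with 646 and 541 UMIs over all cells. It was highest in lymphatic EC-like cells (127 and 77.1 CPM). Neutrophil-like cells followed with 75.6 and 13.2 CPM, on 37 and 3 UMIs, and EC-like cells with 34.7 and 35.5 CPM, and the EC-like cells gave 56% and 54.2% of its UMIs.

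Ferritin marked the phagocytes. Fth1 reached 17988 and 11717 CPM in neutrophil-like and 12848 and 9498 CPM in macrophage-like cells, and lymphatic EC-like cells were next with 7610 and 6774 CPM. Its lowest levels were in pericyte-like cells (1322 and 936 CPM) and EC-like cells (1384 and 1153 CPM), so the lymphatic and the other endothelial cells lay far apart. Ftl1 was highest in macrophage-like cells (5598 and 4255 CPM), followed by neutrophil-like cells (4147 and 3230 CPM) and FAP-like cells (2376 and 1797 CPM), an order held by both libraries.

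**Figure D1:**
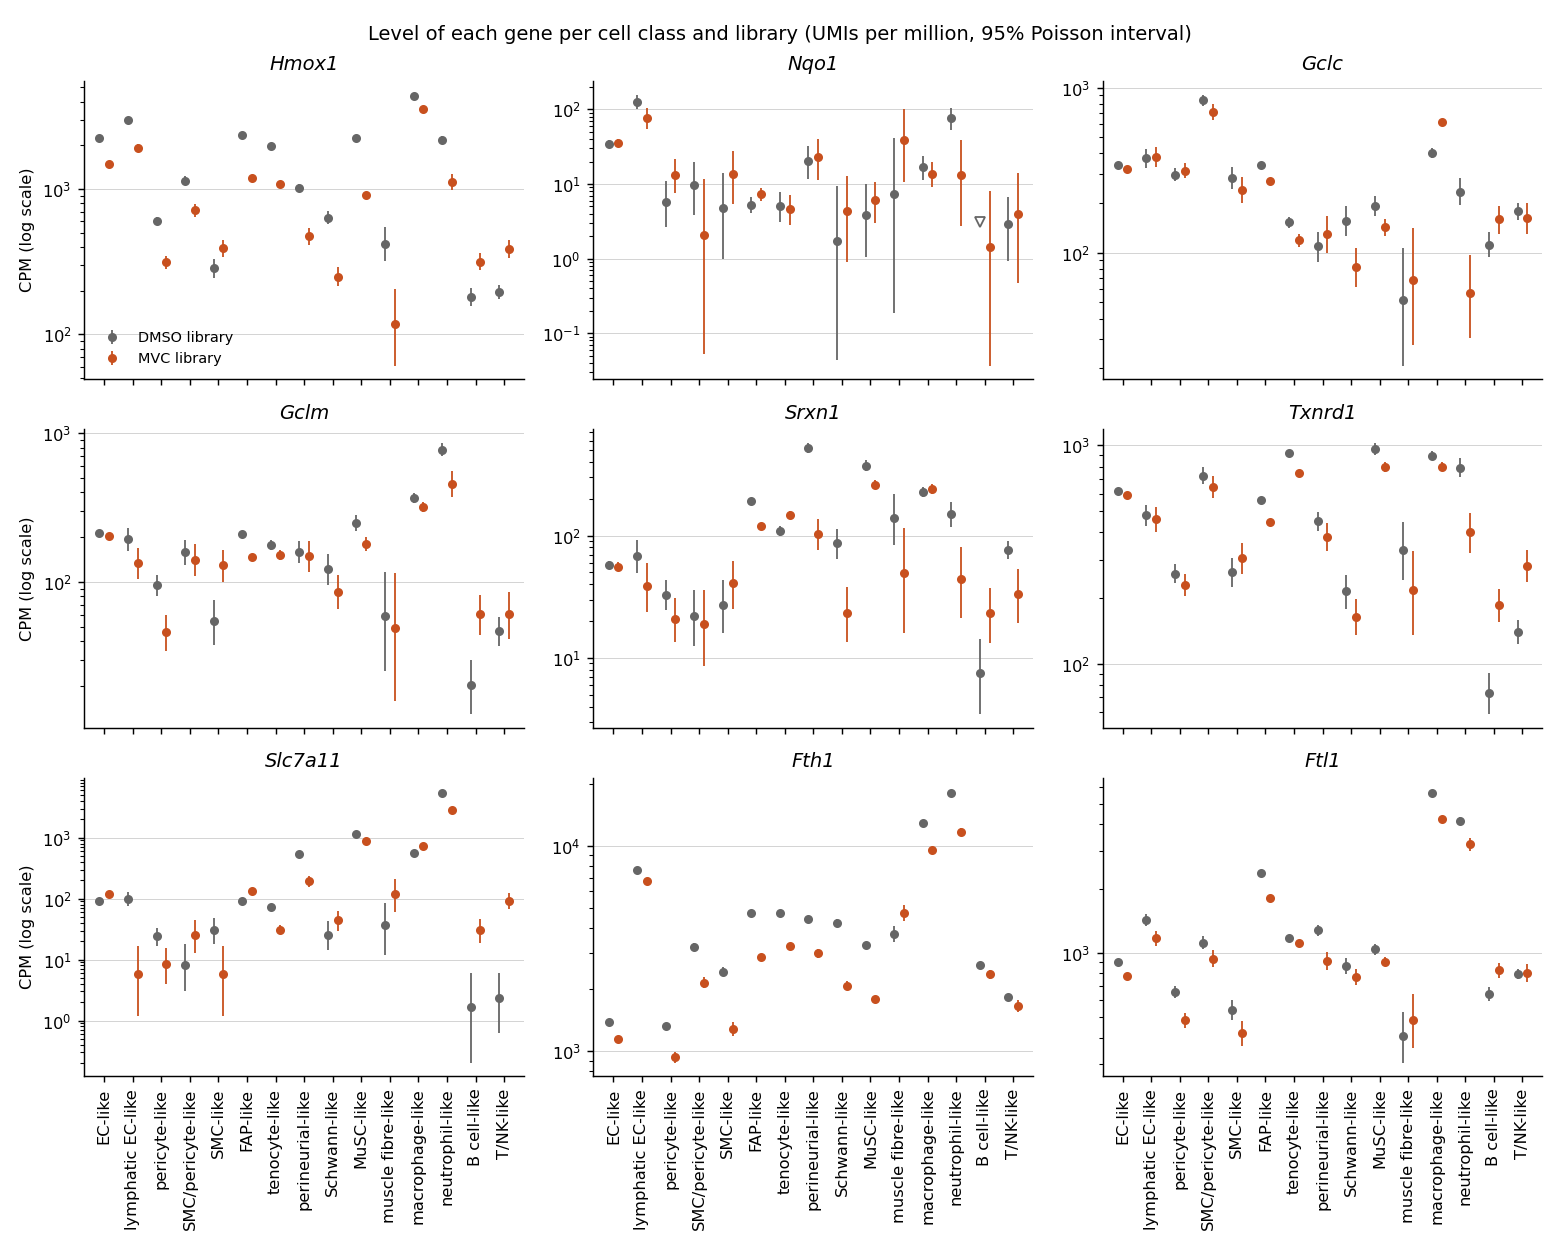
Level of each of the 9 genes (CPM, log axis) in the 15 named cell classes, with the DMSO library in grey and the MVC library in orange. Bars are 95% Poisson intervals, the open triangle for Nqo1 in B cell-like cells marks the upper limit of a level of 0, and the MVC points of Hmox1 and Fth1 lie below the DMSO points in most classes.

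The comparison of MVC with DMSO asks how these genes differed in each cell class between the treated and the vehicle mice. A gene was compared in a class where it had at least 100 UMIs over both libraries, and was counted as lower or higher where the ratio of MVC to DMSO CPM was past 1.5-fold. Of 87 such pairs of gene and class, 20 (23.0%) were lower and 5 (5.75%) were higher in the MVC library. Over all genes, between 2.26% and 11.8% of those compared in a class were lower, and between 6.64% and 16.2% were higher. Of the 20 lower pairs, 9 belonged to Hmox1 and 3 to Fth1, which leaves 8 for the other genes. With predicted doublets left out there were 15 lower pairs, 6 of them of Hmox1. The median log2 ratio of the 9 genes lay below that of all genes in 11 of the 12 classes.

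By class, the members lower in MVC were 1 of 9 compared in EC-like cells (Hmox1), where 2.8% of all 9720 genes were lower and 7.84% higher. In FAP-like cells they were 3 of 9 (Hmox1, Srxn1 and Fth1), against 2.26% lower and 9.17% higher of all 10890 genes. In MuSC-like cells they were 2 of 8 (Hmox1 and Fth1), against 6.99% lower and 7.56% higher. In tenocyte-like cells they were 2 of 8 (Hmox1 and Slc7a11), against 4.23% lower and 6.64% higher. None of the 9 genes was higher past the fold in these 4 classes.

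Hmox1 was also lower in the other vessel-associated classes and in the nerve-associated ones, although its direction in pericyte-like and perineurial-like cells turned under alternatives given below. In pericyte-like cells 2 of 6 members were lower (Hmox1 and Gclm), where 4.74% of all genes were lower and 7.01% higher. In SMC/pericyte-like cells it was 1 of 6 (Hmox1), against 6.76% lower and 7.47% higher. In lymphatic EC-like cells it was 2 of 7 (Hmox1 and Nqo1), against 8.21% lower and 7.69% higher. The nerve-associated classes had 3 lower members each, namely Hmox1, Gclc and Fth1 of 6 compared in Schwann-like cells (6.29% of all genes lower, 8.64% higher) and Hmox1, Srxn1 and Slc7a11 of 8 in perineurial-like cells (11.8% lower, 16.2% higher).

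In the compared leukocyte classes fewer members were lower. In macrophage-like cells no member of 8 was lower past the fold and Gclc was higher, where 4.92% of all genes were lower and 6.99% higher. In B cell-like cells Hmox1 and Txnrd1 of 5 compared were higher and none was lower, against 9.58% higher and 6.57% lower of all genes. In T/NK-like cells Hmox1 and Txnrd1 of 7 were higher and Srxn1 was lower, against 13.3% higher and 10% lower.

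**Figure D2:**
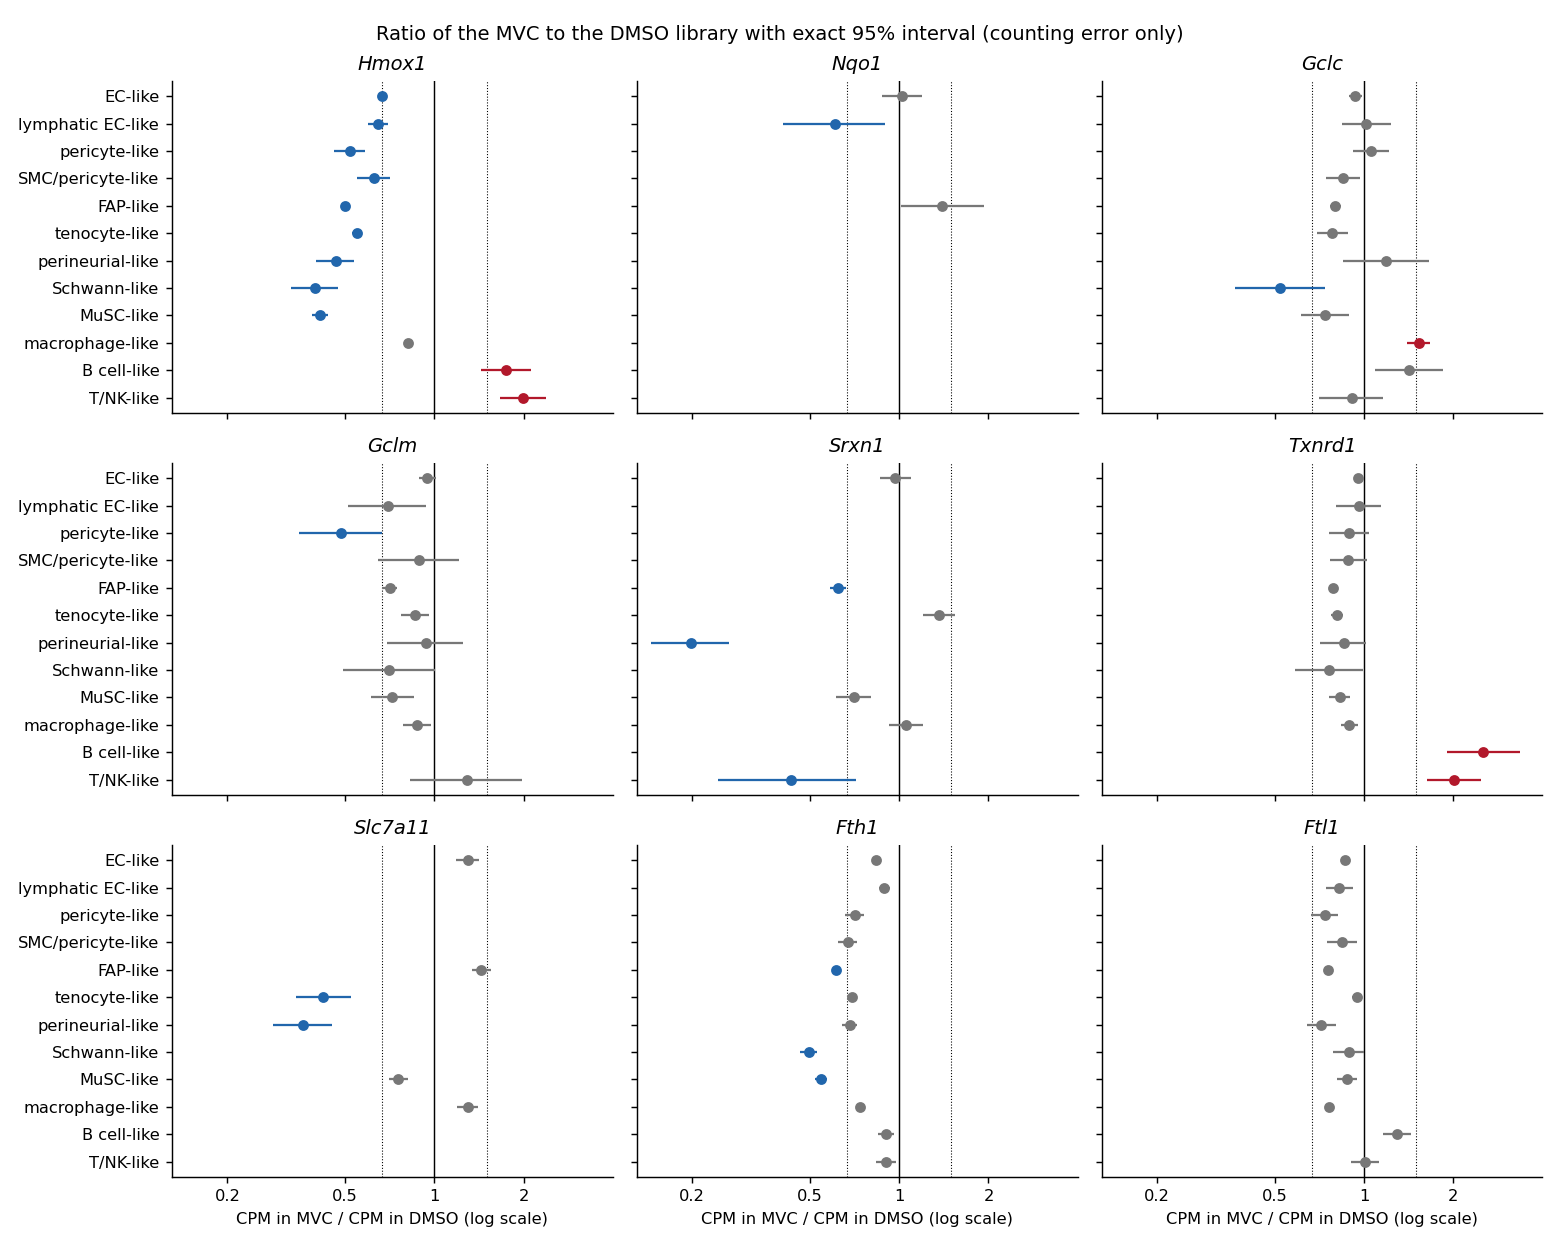
Ratio of the CPM in the MVC library to that in the DMSO library (log axis) for each gene in the 12 compared classes, shown where at least 100 UMIs were counted, with exact 95% intervals. Dotted lines mark 1.5-fold in each direction, blue points are lower and red points higher past it, and 9 blue points belong to Hmox1 and none to Ftl1.

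Hmox1, the haem-degrading enzyme, had the broadest difference. Over all cells it stood at 2033 CPM in DMSO and 1278 CPM in MVC, a ratio of 0.629 (95% interval 0.621 to 0.636). In FAP-like cells the level was 2365 CPM in DMSO and 1184 CPM in MVC, a ratio of 0.501 (0.491 to 0.510). The median gene of FAP-like cells was itself 0.13 higher on the log2 scale in MVC, and relative to that median the Hmox1 ratio was 0.458. In MuSC-like cells the level was 2236 and 917 CPM, a ratio of 0.410 (0.385 to 0.437), and in tenocyte-like cells 1992 and 1091 CPM, a ratio of 0.548 (0.528 to 0.568). EC-like cells stood at 2240 and 1489 CPM, a ratio of 0.665 (0.650 to 0.679) that sat at the edge of the 1.5-fold limit. It was 0.670 with predicted doublets left out and 0.678 under a stricter cell filter, both just short of that limit.

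In lymphatic EC-like cells the ratio of Hmox1 was 0.643 (0.595 to 0.695), or 0.682 without predicted doublets and 0.696 without the 3 cells of each library that held the most, and in SMC/pericyte-like cells 0.624 (0.548 to 0.709). The lowest ratio was that of Schwann-like cells at 0.394 (0.327 to 0.474), with 634 CPM in DMSO and 250 CPM in MVC. In these cells, 13.7% of which were predicted doublets, the 8 FAP markers summed to 3432 CPM in DMSO and 1768 CPM in MVC, and their part in the difference was not tested. Pericyte-like cells (604 and 313 CPM, ratio 0.517) and perineurial-like cells (1020 and 473 CPM, ratio 0.464) did not hold their direction. With predicted doublets left out the ratio in pericyte-like cells was 1.17, and with each cell named from its own markers the ratios were 1.10 and 1.32. Doublet calls made up 13.6% of pericyte-like cells. Macrophage-like cells, where Hmox1 was highest, had a ratio of 0.814 (0.789 to 0.840), short of the 1.5-fold limit.

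The difference in Hmox1 was also found inside the clusters that make up the large classes. Of 19 clusters with at least 50 cells in each library, 17 had an Hmox1 ratio below 1 and 12 were past 1.5-fold, the lowest being 0.410 in the MuSC-like cluster. The 5 EC-like clusters of that size had ratios from 0.587 to 0.757 and the 4 FAP-like clusters from 0.525 to 0.633. All of these FAP-like clusters were past 1.5-fold. Of the EC-like clusters only that led by Depp1 and Rassf9 (0.587) was past it, and the others stood at 0.672, 0.686, 0.734 and 0.757. Within the FAP-like class the level varied more between clusters than between libraries. The FAP-like cluster led by Ptx3 and Ifi205 held 3300 and 2090 CPM, and the FAP-like cluster led by Cxcl14 and Smoc2 held 854 and 475 CPM. The former was 44.2% of FAP-like cells in DMSO and 33.6% in MVC and the latter 41.0% and 50.7%, so the clusters that hold most FAP-like cells differed between the libraries.

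Among endothelial clusters, the one led by Selp and Sele, adhesion genes for leukocytes, held the most Hmox1 (3632 and 2665 CPM). The one led by Depp1 and Rassf9 held the least of the 5, 409 and 240 CPM, and made up 16.8% of EC-like cells in DMSO and 29.5% in MVC. Nqo1 and Slc7a11 were also highest of these 5 clusters in the Selp-led cluster, with 93.9 and 88.3 CPM of Nqo1 and 392 and 472 CPM of Slc7a11. In the Depp1-led cluster these genes stood at 7.13 and 10.2 CPM and at 2.14 and 1.61 CPM.

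**Figure D3:**
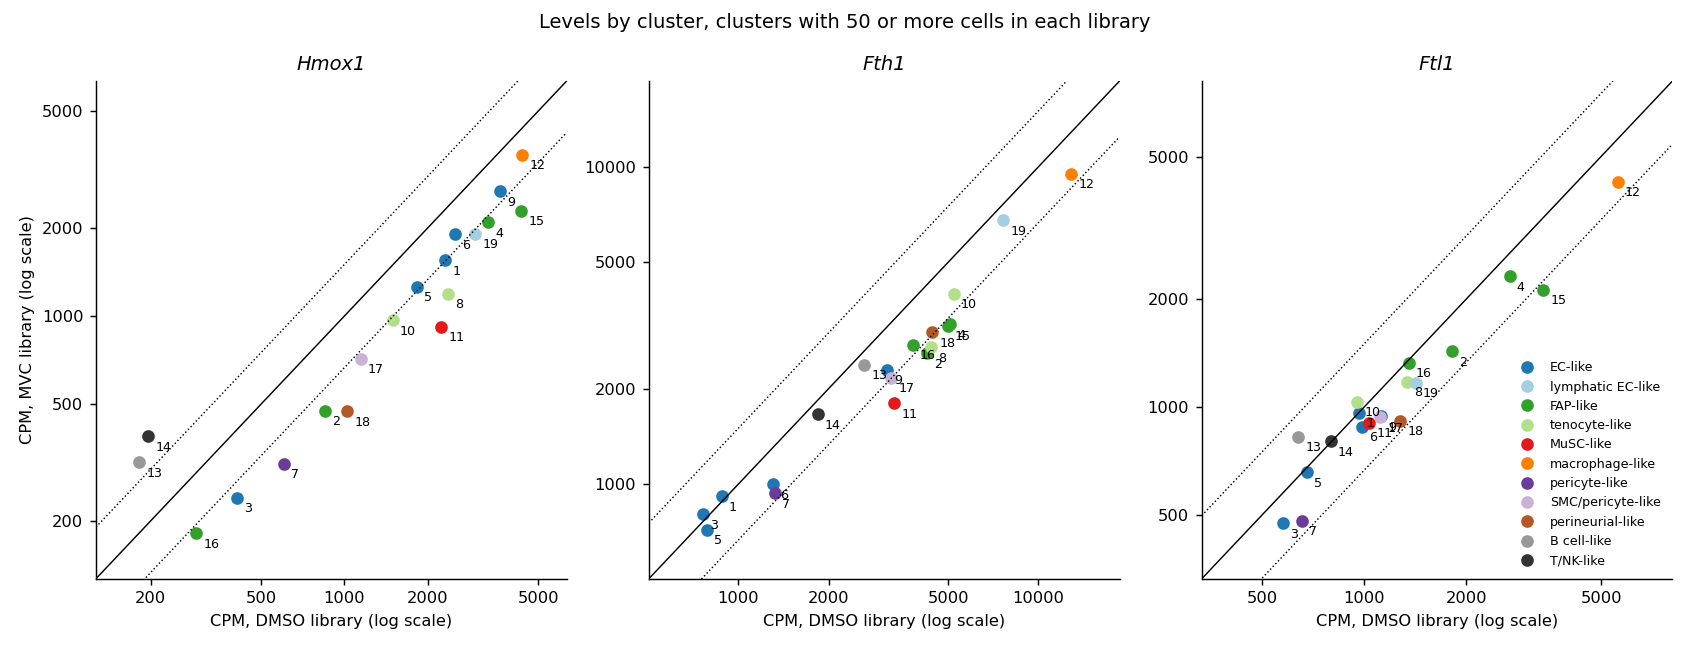
Level (CPM, log axes) of Hmox1, Fth1 and Ftl1 in the DMSO library (horizontal) and the MVC library (vertical) for the 19 clusters with at least 50 cells in each library, coloured by class and numbered by cluster. The solid line marks equal levels and the dotted lines 1.5-fold, and 17 of 19 clusters lie below the solid line for Hmox1, 17 for Fth1 and 16 for Ftl1.

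Among single cells, the Hmox1 difference was seen in how many cells held a UMI. Each cell was thinned at random to 2000 UMIs, and shallower cells were left out, 45 of 1173 in DMSO and 119 of 1423 in MVC for FAP-like cells. At least 1 Hmox1 UMI was then found in 66.5% (exact 95% interval 63.7% to 69.2%) of FAP-like cells in DMSO and 47.9% (45.2% to 50.7%) in MVC. In MuSC-like cells the shares were 70.5% (62.2% to 77.9%) and 43.1% (36.8% to 49.5%), with 5 and 10 cells left out. The share was lower in the MVC library in both classes, and the intervals cover the counting of cells within a library only. The unthinned shares were 80.1% and 62.4% in FAP-like cells, at median depths of 10387 and 9206 UMIs, and 79.9% and 56.3% in MuSC-like cells, at 6757.5 and 6422 UMIs.

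B cell-like cells, which are not known for Hmox1, gave a thinned share of 7.92% in DMSO and 15.2% in MVC, at median depths of 5071 and 5412 UMIs, and a share at that level is read as background. EC-like cells (61.6% and 48.8%, unthinned 66.6% and 51.1%, with 322 and 625 cells left out) and tenocyte-like cells (68.0% and 51.8%, unthinned 80.6% and 67.3%) were also lower in the MVC library. In macrophage-like cells the shares were 76.8% (68.9% to 83.4%) and 73.6% (66.9% to 79.6%). These intervals overlapped, and they cover the counting of cells within a library only.

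**Figure D4:**
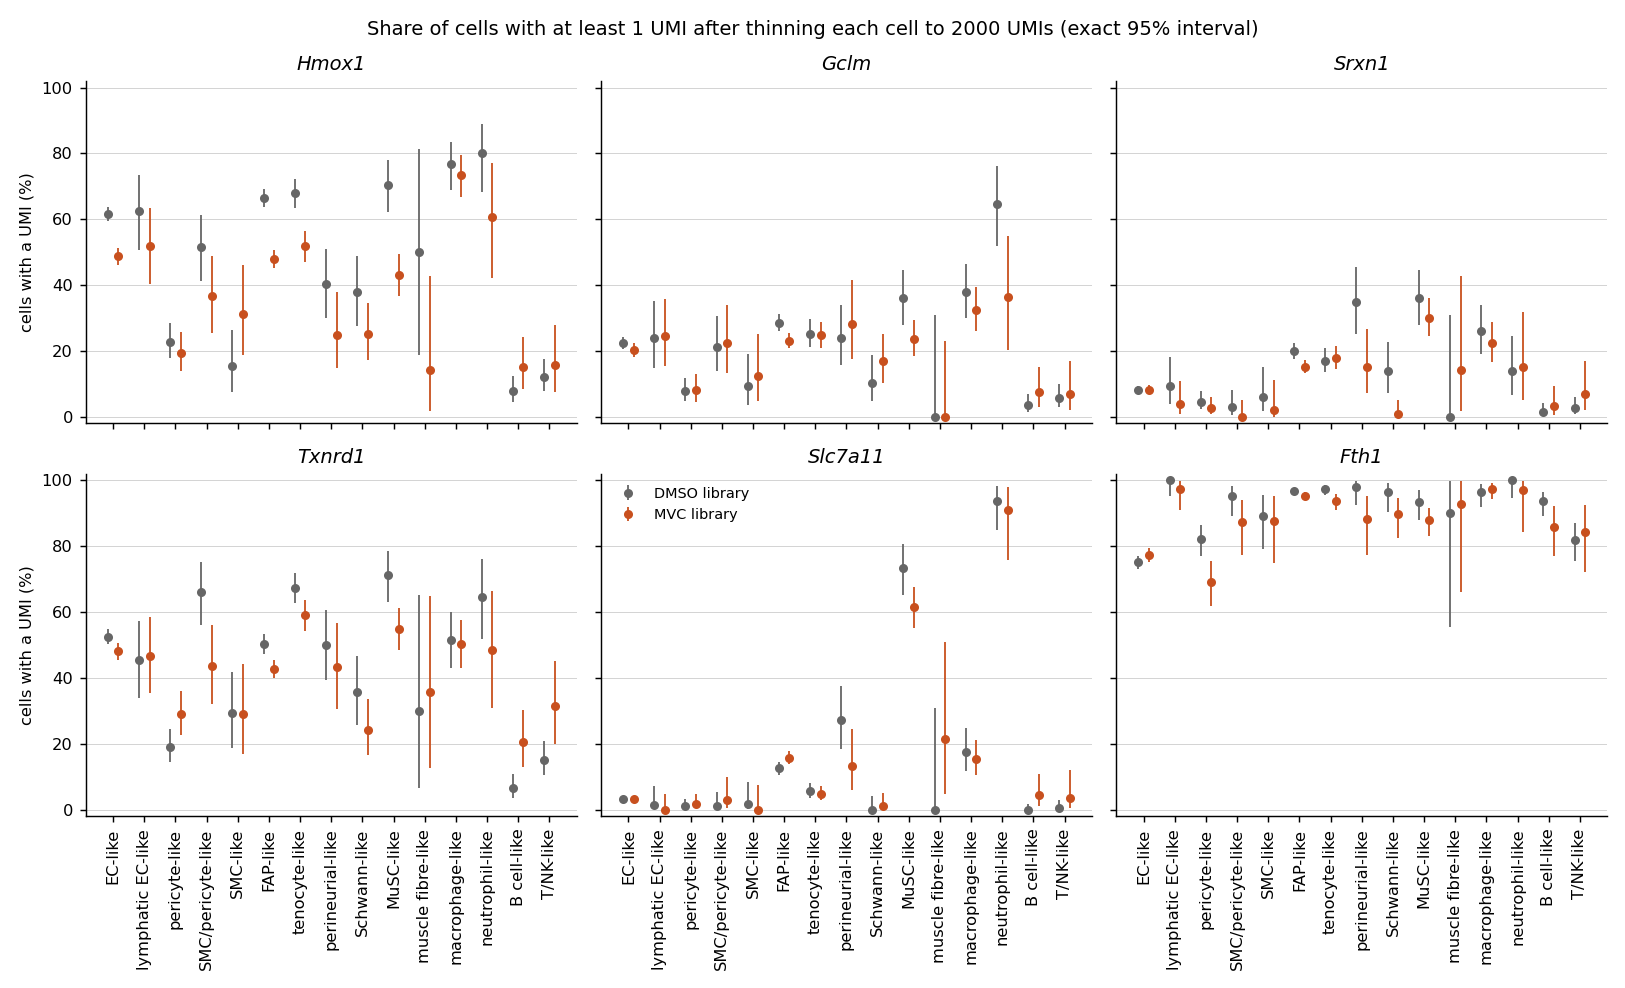
Share of cells (%) with at least 1 UMI of 6 of the genes after each cell was thinned to 2000 UMIs, by class, with the DMSO library in grey and the MVC library in orange and exact 95% intervals. The Hmox1 share of FAP-like cells was 66.5% in DMSO and 47.9% in MVC, and Slc7a11 exceeded 60% only in MuSC-like and neutrophil-like cells.

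The ferritin chains behaved unequally. Fth1 had a ratio below 1 in all 12 compared classes, with every counting interval below 1, and over all cells it stood at 3970 CPM in DMSO and 2842 CPM in MVC. The ratio was past 1.5-fold in FAP-like cells (4695 and 2862 CPM, 0.610, interval 0.602 to 0.617), in MuSC-like cells (3298 and 1796 CPM, 0.545, 0.519 to 0.572) and in Schwann-like cells (4220 and 2085 CPM, 0.494, 0.463 to 0.528). Relative to the median gene, the ratio in FAP-like cells was 0.558. In SMC/pericyte-like cells it was 0.669, in perineurial-like cells 0.680 and in tenocyte-like cells 0.691, just short of the limit. Over the alternatives these ranged from 0.585 to 0.689, from 0.652 to 0.970 and from 0.653 to 0.698, so the value in perineurial-like cells was the least settled. EC-like cells (0.833), lymphatic EC-like cells (0.890), B cell-like cells (0.903) and T/NK-like cells (0.903) were nearest to 1. Within the EC-like class the 2 clusters led by Cldn5 and by Depp1 had ratios of 1.04 and 1.05.

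Ftl1, the light chain, had a ratio below 1 in 10 of 12 classes and was past 1.5-fold in none. Its lowest ratio was 0.717 (0.640 to 0.801) in perineurial-like cells, and its highest 1.29 (1.16 to 1.44) in B cell-like cells. The value in perineurial-like cells was 1.35 with each cell named from its own markers. In MuSC-like cells, where Fth1 was 0.545 of its DMSO level, Ftl1 was at 1037 and 906 CPM, a ratio of 0.874 (0.809 to 0.945). The number of Fth1 UMIs per Ftl1 UMI was therefore 3.18 in DMSO and 1.98 in MVC in MuSC-like cells, and 4.85 and 2.71 in Schwann-like cells. It was lower in MVC in 11 of 12 classes, by factors from 0.557 to 0.973, and higher in lymphatic EC-like cells (5.36 and 5.79). Macrophage-like cells had nearly the same proportion in both libraries (2.30 and 2.23), with Fth1 at 0.739 and Ftl1 at 0.760 of their DMSO levels.

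Counting of Ftl1 is less certain than that of the other genes. Of the 31-base words of its main transcript, 85.4% also occur in transcripts of other genes and 80.6% in those of Ftl1-ps1, a near copy on chromosome 13. The word share was 7.92% for Fth1 and at most 2.34% for the other 7 genes. Ftl1-ps1 itself was listed with 2406 UMIs in DMSO and 745 in MVC, which is 3.57% and 1.44% of the UMIs of both copies together. How reads that match both copies were divided was not tested.

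The genes of glutathione synthesis were past the fold in few classes. Gclm, the modifier subunit, was below 1 in 10 of the 11 classes where it was compared, and above 1 in T/NK-like cells (1.29, 0.825 to 1.98). It had ratios of 0.706 (0.666 to 0.748) in FAP-like cells (210 and 148 CPM) and 0.720 (0.610 to 0.851) in MuSC-like cells (249 and 180 CPM). In EC-like cells it was at 214 and 203 CPM, a ratio of 0.947 (0.888 to 1.01). It was past the fold in pericyte-like cells alone among the compared classes (95.03 and 46.0 CPM, ratio 0.484, 0.348 to 0.664), on 147 and 55 UMIs, and this ratio was 0.990 with each cell named from its own markers.

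Gclc, the catalytic subunit, was higher in macrophage-like cells, at 403 CPM in DMSO and 616 CPM in MVC, a ratio of 1.53 (1.40 to 1.67). This rested in part on few cells, since 30% of its UMIs in DMSO and 42% in MVC came from 3 cells of each library, and without those cells the ratio was 1.24. It was 1.44 when each cell counted equally. In Schwann-like cells Gclc was at 157 and 81.9 CPM, a ratio of 0.522 (0.368 to 0.736) that was 0.899 with predicted doublets left out and 0.797 without the 3 cells of each library that held the most. Elsewhere its ratios lay between 0.738 in MuSC-like and 1.42 in B cell-like cells.

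Slc7a11, which imports cystine, split by class. It was higher in MVC, though short of 1.5-fold, in FAP-like cells (92.8 and 133 CPM, ratio 1.44, 1.34 to 1.55), EC-like cells (90.4 and 117 CPM, 1.29, 1.18 to 1.42) and macrophage-like cells (1.29, 1.20 to 1.40). The value in EC-like cells was 0.861 when the 3 cells with most UMIs were left out of each library. It was lower past the fold in tenocyte-like cells (73.8 and 31.2 CPM, ratio 0.422, 0.340 to 0.521) and in perineurial-like cells (533 and 192 CPM, ratio 0.361, 0.285 to 0.452), the latter being 0.722 when each cell counted equally. MuSC-like cells, with the highest level outside the leukocytes, had a ratio of 0.756 (0.702 to 0.816). In the 65 and 34 neutrophil-like cells, too few for a comparison, its level was 5517 and 2879 CPM.

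Of the thiol repair enzymes, Srxn1 was lower in FAP-like cells (193 and 120 CPM, ratio 0.621, 0.583 to 0.662) and in perineurial-like cells (521 and 103 CPM, ratio 0.198, 0.145 to 0.266). The latter was the lowest ratio of any member past the UMI minimum and ranged from 0.150 to 0.220 over the alternatives. The value in FAP-like cells was 0.695 when each cell counted equally, short of the limit. Inside the FAP-like clusters Srxn1 was also short of it where compared. Its ratio was 0.779 in the cluster led by Cxcl14, 0.726 in that led by Ptx3 and 0.853 in that led by Dmkn. The cluster led by Pi16 held 13 and 29 UMIs, below the minimum, at a ratio of 1.70. The Ptx3-led cluster, with 316 and 230 CPM, was 44.2% of FAP-like cells in DMSO and 33.6% in MVC. In tenocyte-like cells Srxn1 went the other way, from 108 to 148 CPM, a ratio of 1.36 (1.20 to 1.55), while Hmox1 in the same cells was at 0.548. In T/NK-like cells its ratio was 0.431, but 83% of its DMSO UMIs came from 3 cells, and without them it was 1.06.

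Txnrd1 was past the fold in no class outside the lymphocytes. Its ratios ran from 0.763 in Schwann-like to 0.959 in lymphatic EC-like cells over the 10 classes outside the lymphocytes, with 0.786 (0.760 to 0.814) in FAP-like and 0.826 (0.762 to 0.897) in MuSC-like cells. The ratio of 0.889 in pericyte-like cells was 1.72 with predicted doublets left out, and that of 0.852 in perineurial-like cells was 1.92 with each cell named from its own markers. Nqo1 could be compared in only 3 classes. It was lower in lymphatic EC-like cells (127 and 77.1 CPM, ratio 0.605, 0.404 to 0.894), level in EC-like cells (ratio 1.02, 0.874 to 1.20) and at 5.27 and 7.36 CPM in FAP-like cells (1.40, 1.02 to 1.93).

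The higher Hmox1 and Txnrd1 values in lymphocytes came with higher levels of stromal and EC marker genes, whose part in them was not tested. Hmox1 stood at 181 CPM in DMSO and 317 CPM in MVC in B cell-like cells (ratio 1.75, 1.44 to 2.12) and at 196 and 389 CPM in T/NK-like cells (1.99, 1.66 to 2.37). Txnrd1 stood at 73.4 and 185 CPM (2.52, 1.91 to 3.35) and at 140 and 281 CPM (2.02, 1.63 to 2.49). The summed level of stromal and EC marker genes in the same cells was 497 CPM in DMSO and 2415 CPM in MVC for B cell-like cells and 552 and 2325 CPM for T/NK-like cells. When lymphocytes with 3 or more UMIs of those markers were left out, an alternative chosen after seeing the data, the Hmox1 ratio was 0.292 in T/NK-like and 1.46 in B cell-like cells. Without the 3 cells of each library that held the most, it was 1.41 in T/NK-like and 3.98 in B cell-like cells. Of the Hmox1 UMIs of B cell-like cells, 80% in DMSO and 57% in MVC lay in 3 cells of each library. Over the alternatives in which it was compared, the Txnrd1 ratio stayed past the fold. It ranged from 1.57 to 2.32 in T/NK-like and from 2.45 to 4.06 in B cell-like cells. The genes of other pathway lists that were highest over DMSO in these classes included Cp (ceruloplasmin, 10.3-fold in T/NK-like and 6.45-fold in B cell-like cells), Gpx3 and Ugdh (5.44-fold and 5.31-fold in T/NK-like cells).

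The regulators of the pathway were seldom past the fold. Among 9 listed regulators of Nrf2, 6 of 88 pairs of gene and class were lower (6.82%) and 2 were higher (2.27%) past the fold, where the shares of all genes in the 12 classes ran from 2.26% to 11.8% lower and from 6.64% to 16.2% higher. The counts of this list and of the 3 below were within or under those ranges. Nfe2l2 itself stood at 387 and 345 CPM in FAP-like cells (ratio 0.89), at 314 and 246 CPM in MuSC-like cells (0.78) and at 566 and 523 CPM in EC-like cells (0.924). Keap1, its inhibitor, was at 11.9 and 18.6 CPM in FAP-like cells, a ratio of 1.57 (1.28 to 1.93). Bach1, the repressor, was lower in lymphatic EC-like cells (233 and 104 CPM, 0.447) and perineurial-like cells (225 and 130 CPM, 0.579), and the small Maf genes Mafk and Maff, whose proteins pair with Nrf2 and Bach1, were lower in pericyte-like and SMC/pericyte-like cells (Mafk, 0.607 and 0.615) and in Schwann-like cells (Maff, 0.589).

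Other genes known as Nrf2 targets were past the fold in both directions. Of 126 pairs over 32 listed genes, 12 were lower (9.52%) and 9 higher (7.14%). Gstm1, a glutathione transferase, was lower in MuSC-like (0.666), pericyte-like (0.565) and tenocyte-like cells (142.6 and 80.3 CPM, 0.563). Ephx1, an epoxide hydrolase, was lower in MuSC-like cells (0.562) and higher in EC-like (1.55), lymphatic EC-like (1.83) and perineurial-like cells (1.52). Gsr, which regenerates glutathione, was at 136 and 52.3 CPM in tenocyte-like cells, a ratio of 0.385 (0.327 to 0.452). Txn1 (thioredoxin) was lower in SMC/pericyte-like (0.657), Schwann-like (0.597) and lymphatic EC-like cells (0.643) and higher in B cell-like (2.03) and T/NK-like cells (1.55).

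In the list of glutathione and peroxide enzymes, 10 of 110 pairs were lower (9.09%) and 6 higher (5.45%). Slc3a2, the partner chain with which Slc7a11 forms the cystine carrier, was lower in EC-like (336 and 211 CPM, 0.628, 0.593 to 0.666), MuSC-like (0.649), pericyte-like (0.625) and lymphatic EC-like cells (0.617). In EC-like cells it thus stood below its DMSO level while Slc7a11 stood above it, at ratios of 0.628 and 1.29. Gpx3, a secreted glutathione peroxidase, was lower in FAP-like (779 and 411 CPM, 0.527, 0.510 to 0.545), pericyte-like (0.463) and perineurial-like cells (0.536) and higher in Schwann-like cells (1.78). Sod2, the mitochondrial superoxide dismutase, was lower in perineurial-like cells (428 and 198 CPM, 0.463) and higher in T/NK-like cells (1.74), and Sod3, the extracellular form, was higher in Schwann-like cells (57.9 and 140 CPM, 2.42).

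Genes of iron and haem handling were lower in 10 and higher in 8 of 129 pairs (7.75% and 6.2%). In macrophage-like cells 3 of 19 were higher and 1 lower (6.99% and 4.92% of all genes there), with Slc40a1 (ferroportin, the iron exporter) at 18.3 and 65.2 CPM (3.56, 2.43 to 5.35), Tfrc (the transferrin receptor) at 72.2 and 153 CPM (2.12, 1.73 to 2.62) and Spic, a transcription factor of haem-handling macrophages, at 29.6 and 59.9 CPM (2.02, 1.46 to 2.83). Slc48a1, a haem transporter, was the lower one (0.597, 0.457 to 0.777). In tenocyte-like cells Slc40a1 went the other way, from 26.4 to 9.01 CPM (0.342, 0.228 to 0.501). Trf (transferrin) was lower in perineurial-like cells (354 and 59.9 CPM, 0.169), and Cp was lower in Schwann-like cells (540 and 228 CPM, 0.422) and higher in perineurial-like cells (1269 and 1909 CPM, 1.504). Slc39a14, a metal importer, was lower in MuSC-like cells (630 and 412 CPM, 0.653), Pcbp1, an iron chaperone of ferritin, in lymphatic EC-like (0.558) and pericyte-like cells (0.618), and Lcn2, a binder of iron-bearing siderophores, in FAP-like cells (0.528). The median log2 ratio of each of these 4 lists lay below that of all genes in 9 of the 12 classes.

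Other signals also differed between the libraries in some classes. The 4 haemoglobin genes, marks of red cells, summed to 4269 CPM in DMSO and 38.4 CPM in MVC in pericyte-like cells and to 1956 and 995 CPM in EC-like cells. In FAP-like cells the sum was 49.1 and 13.2 CPM, in MuSC-like cells 11.6 and 12.6 CPM and in tenocyte-like cells 5.02 and 291 CPM. A list of 38 genes induced by tissue dissociation summed to 39597 and 54935 CPM in MuSC-like cells, 48505 and 52878 CPM in FAP-like cells and 50338 and 50928 CPM in EC-like cells. It was lower in MVC in Schwann-like (39598 and 33546 CPM), pericyte-like (54974 and 42035 CPM) and perineurial-like cells (38388 and 27018 CPM). It was also lower in lymphatic EC-like cells (33838 and 29793 CPM) and SMC/pericyte-like cells (33109 and 31208 CPM). The 8 FAP markers summed to 475 CPM in DMSO and 1468 CPM in MVC in MuSC-like cells, to 189 and 468 CPM in EC-like cells, to 329 and 1069 CPM in lymphatic EC-like cells and to 728 and 2526 CPM in SMC/pericyte-like cells. In pericyte-like cells they summed to 2396 and 1488 CPM. The part of these signals in the differences was not tested.

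Across the 12 compared classes in both libraries, 24 points in all, some of the genes were alike in their profile of log2 level. Gclm was the gene most like Hmox1 among 14977 genes (Pearson r = 0.91), followed by Txnrd1 (0.85) and Sqstm1 (0.85). Gclm and Txnrd1 were also alike (0.90), as were Srxn1 and Slc7a11 (0.81) and the ferritin chains Fth1 and Ftl1 (0.82). Gclc had r from -0.13 (Srxn1) to 0.52 (Hmox1) to the other members, with 0.45 to Txnrd1 and 0.42 to its partner subunit Gclm. Low values also occurred elsewhere, since Fth1 had r of 0.38 to Txnrd1 and 0.34 to Slc7a11. The genes most like Gclc were Gdf15 (0.83), Gm4951 (0.82) and Nfe2l2, the gene of Nrf2 itself (0.80). Nqo1 was most like Tgfa (0.91), F11r (0.91) and Cemip2 (0.90). The points share library and depth and each class enters for both libraries, so these values describe likeness over the classes only.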

How the data were processed

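The deposited count matrices hold UMI counts per gene and barcode for 1 DMSO and 1 MVC library of mouse limb muscle mononuclear cells. Per the labels, the submitters' processing notes name Cell Ranger 7.0.0, Seurat 5.0.1 and build mm10. Whether intronic reads were counted is not given in the sources used here. The authors made the counts from 3′-end tags, so UMIs are not scaled by gene length.

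Barcodes under 500 genes or above 10% mitochondrial UMIs were removed. The 2000 most variable genes, without mitochondrial and sex-linked genes, the 9 genes and the Nrf2, glutathione and iron lists, gave 30 principal components, a graph of 20 neighbours and Leiden clusters (leidenalg 0.10.2, igraph 0.11.9, scikit-learn 1.9.0, resolution 1). Clusters were named from marker lists, and these rebuilt names may differ from those of the study. Predicted doublets, scored per library against simulated ones, were kept, and left out in an alternative. No correction for free RNA was made.

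UMIs were summed per class and library (numpy 2.4.6, scipy 1.17.1) and given as CPM with exact Poisson intervals. Ratios carry exact conditional binomial intervals, shares exact Clopper-Pearson intervals, all at 95%. With 1 library a treatment there was no replicate check, and no p-value was computed. A pair of gene and class needed 100 UMIs over both libraries, and past 1.5-fold was counted as higher or lower. List genes named were up to 4 a class with the largest change on the log2(CPM + 10) scale among those past the fold, and calls of the same genes in other classes were added after their values were seen. The 3 most alike genes were ranked by Pearson r on that scale, with some of them given here. The fold calls and intervals were also run on simulated counts that held counting error only. That run has no variation between cells, mice or libraries, so it cannot check the calls against such variation. The genes and lists were chosen with earlier results of these data known. Values of alternatives named in the text come from the same steps with 1 choice altered. Alternatives comprised other filters, scalings, class definitions, UMI minimums and thinning depths.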

Additional observations from a re-analysis of the deposited data

Results flagged for a closer look

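Hmox1 went in opposite directions between classes of the same contrast. The ratio of MVC to DMSO was 1.75 in B cell-like and 1.99 in T/NK-like cells and 0.394 in Schwann-like cells, its lowest. Gclc likewise had a ratio of 1.53 in macrophage-like and 0.522 in Schwann-like cells. With 1 library a treatment these differences between classes were not tested. The Hmox1 ratio in T/NK-like cells was 0.405 with classes from own markers and 0.292 with marker-bearing lymphocytes left out. The Gclc ratio was 1.24 in macrophage-like cells without the top 3 cells and 0.899 in Schwann-like cells without doublets.

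Barcodes removed by the cell filter, 375 in DMSO and 593 in MVC, also held the genes. Hmox1 was at 696 CPM in the DMSO and 469 CPM in the MVC removed barcodes, and was lower in MVC there as well. So were Fth1 (3127 and 1952 CPM) and Ftl1 (1044 and 640 CPM). Other members were higher in MVC there, namely Gclc (39.8 and 262 CPM), Gclm (34.8 and 125 CPM), Txnrd1 (261 and 312 CPM) and Slc7a11 (29.8 and 67.8 CPM). Srxn1 stood at 37.3 and 40.3 CPM, and Nqo1 had 2 UMIs in each library. The removed barcodes thus did not share 1 direction over the members.

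Ftl1-ps1, the copy of Ftl1 that enters no comparison above, had a ratio of 0.338 over all kept cells (2406 and 745 UMIs, interval 0.311 to 0.367), against 0.859 for Ftl1.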

How the results depend on the processing

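Among the ratios past the fold, the direction was turned by an alternative for Hmox1 in T/NK-like cells (0.405 with classes from own markers, 0.292 with marker-bearing lymphocytes left out), Srxn1 in T/NK-like cells (1.06 without the top 3 cells), Hmox1 in pericyte-like cells (1.17 without doublets, 1.10 with own markers) and Hmox1 in perineurial-like cells (1.32 with own markers). Hmox1 was lower past the fold in 9 classes, and in 6 to 10 under the alternatives, 6 without doublets and 6 with own markers. The count of lower pairs was 20, and 15 to 25 under the alternatives. Fth1 stayed below 1 in 12 of 12 classes, or in the 11 that remained with own markers. With a minimum of 20 UMIs the higher member pairs were 11 in place of 5, regulators higher 9 in place of 2, other targets 24 lower and 28 higher, glutathione enzymes 19 and 20, and iron genes 26 and 29. More pairs are compared at that minimum, and the share of all genes past the fold there was not computed. These counts are therefore not read as results about the lists. Leaving out marker-bearing lymphocytes gave 3 higher member pairs and 1 higher regulator pair. Removing doublets gave 5 higher regulator and 5 higher iron pairs, and median-ratio scaling and own markers 5 higher other-target pairs each. The causes were not tested, except that a lower minimum admits genes with few counts. Depth limits Nqo1, compared in 3 classes only, and 1 library a treatment leaves differences between mice unmeasured.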

Other observations

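Among the classes too small to compare were neutrophil-like cells (65 in DMSO, 34 in MVC). They held Hmox1 at 2181 and 1115 CPM, Gclm at 776 and 456 CPM and Txnrd1 at 792 and 399 CPM. The other members were also lower in MVC, with Nqo1, Srxn1 and Gclc on only 3, 10 and 13 UMIs there. The share of all genes lower in these cells was not computed, so the direction is not read as particular to the members. Neutrophil-like cells also held Slc40a1, the iron exporter, at 704 and 597 CPM, against 18.3 and 65.2 CPM in macrophage-like cells. Doublet calls made up 21.2% of them. Smooth muscle cell (SMC)-like cells (65 and 49) held Fth1 at 2435 and 1280 CPM but Hmox1 at 287 and 391 CPM and Gclm at 54.4 and 130 CPM, the reverse of the direction in FAP-like and MuSC-like cells. Muscle fibre-like cells (15 and 26) were the named class with the lowest mean level of Ftl1, at 405 and 482 CPM.

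Within macrophage-like cells Slc7a11 was held by a small part of the cells. After thinning, the 10% of cells with the most held 88% of its UMIs in DMSO and 93% in MVC, and 17.6% and 15.2% of cells had at least 1. In MuSC-like cells that top 10% held 30% and 38%, and 73.4% and 61.4% of cells had at least 1.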
